A study of Mus musculus with 6 samples.

Results

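The comparison described here sets mouse embryonic stem cells that expressed Prmt6 shRNA2, the second of a pair of short hairpin RNAs against Prmt6, against the same cells with a hairpin against GFP. It rests on 4 of the 6 arrays of the study, 2 with Prmt6 shRNA2 and 2 with GFP shRNA, chosen by their labels. The remaining arrays carry Prmt6 shRNA1 and are used only where the hairpins are compared. Every probe of the deposited table without normalization was a candidate, and a probe was kept when its detection score was above 0.99 on both arrays of Prmt6 shRNA2 or of GFP shRNA. That left 5157 of the 24613 probes of a first probe series and 1601 of the 22030 probes of a second, recognised by its higher address numbers. The second series had low signal on Prmt6 shRNA2 replicate 2 and is reported apart, at the end.

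The groups were CCE embryonic stem cells with Prmt6 shRNA2, with Prmt6 shRNA1 or with GFP shRNA, all grown without feeder cells in serum and LIF, the cytokine that holds mouse stem cells in self-renewal. All 3 groups received a pSuper.puro plasmid by lipid transfection and puromycin from 18 h onwards for 4 days. The hairpins were expressed from transfected plasmids and no clone is described, and the control hairpin targets a sequence that the cells are not described as carrying. The labels do not state whether replicates were separate cultures, so the p-values measure the spread between these samples, which may be technical. Pluripotency and reprogramming are named in the study's title as its subject.

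PRMT6 is a nuclear enzyme that places asymmetric dimethyl groups on arginines, among them the arginine near the start of the histone H3 tail, next to the lysine that marks active promoters. Methylation of that arginine hinders the enzymes that methylate the neighbouring lysine. Mouse embryonic stem cells are kept undifferentiated by a network of transcription factors led by Oct4 (Pou5f1), Sox2 and Nanog, and when the network weakens they can turn on endoderm, trophectoderm or neural genes.

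Detected first-series probes numbered 5700 and 4847 with Prmt6 shRNA2, 5067 and 8092 with Prmt6 shRNA1, and 6766 and 4826 with GFP shRNA. Across kept first-series probes, which are not independent replicates, the replicates correlated with r = 0.964 for Prmt6 shRNA2, 0.966 for Prmt6 shRNA1 and 0.983 for GFP shRNA. Prmt6 shRNA2 replicate 1 correlated about as well with Prmt6 shRNA1 replicate 1 (r = 0.969). The markers of embryonic stem cells on the first series, Pou5f1, Sox2, Nanog, Zfp42 and Utf1, were detected on both arrays of each group, 5 of 5. Their summed intensity was 10734.5 and 6952.1 with Prmt6 shRNA2 and 20856.3 and 12286.9 with GFP shRNA. Of 14 fibroblast and feeder markers, 2 were detected on both arrays of each group (Acta2 and Vim), and the collagen genes Col1a1, Col1a2 and Col3a1 were at background on every array. Their sums were 6556.2 and 4099.8 with Prmt6 shRNA2 and 5318.2 and 3162.2 with GFP shRNA. None of the 7 blood and endothelial, 2 neuroectoderm or 3 measured mesoderm markers was detected on both arrays of any group. In RNA from whole cultures, fewer cells of a type and less RNA per cell cannot be told apart.

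Prmt6 itself was lower on both arrays with its second hairpin, without passing the test over its probe series. The kept Prmt6 probe, which belongs to the second series, had intensities of 97.8 and -21.6 with Prmt6 shRNA2, 48.3 and 147.6 with Prmt6 shRNA1, and 389.8 and 266.1 with GFP shRNA. Both Prmt6 shRNA2 arrays lay below both GFP shRNA arrays, the probe was detected on neither of them, and the negative value comes from the array with low second-series signal. The measured difference was at least 1.12-fold, with a fitted log2 difference of -2.14 ± 0.55 (SE; limma adjusted p = 0.497). A second Prmt6 probe, at 75.9 and 23.9 with Prmt6 shRNA2 and 276.6 and 210.9 with GFP shRNA, was not kept because its detection score on GFP shRNA replicate 2 was 0.98877. The first-series Prmt6 probe was detected on no array. The fitted difference between Prmt6 shRNA2 and Prmt6 shRNA1 was -0.83 (limma adjusted p = 0.478).

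Over the first series, more probes were called higher than lower with Prmt6 shRNA2 when all arrays were used. Of 5157 probes, 322 were called at a limma adjusted p under 0.05 (6.24%), 221 of them higher (4.29%) and 101 lower (1.96%). At an unadjusted p under 0.05 the count was 1348. The rises reached at least 2-fold for 110 probes and the falls for 44. The 221 and 101 probes stood for 204 and 90 named genes. On every called probe the Prmt6 shRNA2 arrays did not overlap the GFP shRNA arrays, a state that 32.2% of all kept probes showed upward and 29.9% downward. Of the called rises, 156 were on probes detected on both arrays of both groups. The other 65 were among 355 probes kept only through Prmt6 shRNA2, a rule that favours rises. Of the called falls, 64 were on probes detected on both arrays of both groups and 37 on probes kept only through GFP shRNA. The calls and their balance rest on particular arrays. Without Prmt6 shRNA2 replicate 1 the balance turned, with 79 probes higher and 145 lower out of 224 called. With both probe series normalized together, 291 were higher and 77 lower. None passed without Prmt6 shRNA2 replicate 2, without GFP shRNA replicate 1 or without GFP shRNA replicate 2 (701, 727 and 912 probes at an unadjusted p under 0.05), and none when the model was fitted over both probe series together (1038 unadjusted).

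**Figure D1:**
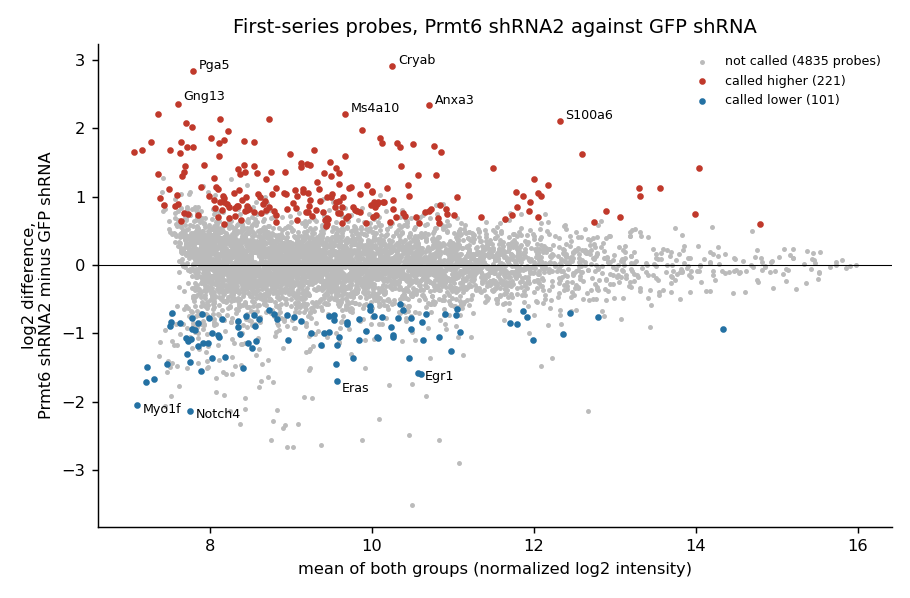
Each point is a kept first-series probe, with its mean normalized log2 intensity over both groups on the horizontal axis and the log2 difference, Prmt6 shRNA2 minus GFP shRNA, on the vertical axis. Coloured points are the 221 probes called higher and the 101 called lower; the 49 probes with at least 4-fold less signal on Prmt6 shRNA2 replicate 2 than on replicate 1 all lie below 0 and none is called.

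The pluripotency genes fell in part. Eras, a Ras-like GTPase made in mouse stem cells, had normalized log2 values of 8.73 and 8.70 with Prmt6 shRNA2 and 10.43 and 10.40 with GFP shRNA. Both knockdown arrays were low and close to each other. The fall was 3.25-fold (log2 -1.70 ± 0.19, limma adjusted p = 0.0102). Nanog, a core pluripotency transcription factor, has 3 kept probes. Its brightest stood at 11.73 and 11.36 with Prmt6 shRNA2 and 13.35 and 12.47 with GFP shRNA, and its log2 difference of -1.37 ± 0.36 did not pass (limma adjusted p = 0.0809). Its other two probes fell by 1.36 and 1.27 on the log2 scale (limma adjusted p = 0.0124 and 0.0109). All 3 Nanog probes separated the groups, and the brightest had the widest gap between the GFP shRNA arrays.

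Pou5f1 and Sox2 were not called. The brightest Pou5f1 probe had 11.75 and 11.63 with Prmt6 shRNA2 and 11.96 and 12.18 with GFP shRNA (log2 -0.38 ± 0.20, limma adjusted p = 0.284), and its second probe gave -0.90 ± 0.20 (adjusted p = 0.0551). Sox2 had 9.42 and 9.27 with Prmt6 shRNA2 and 9.72 and 9.83 with GFP shRNA (log2 -0.43 ± 0.15, adjusted p = 0.142). For both genes the Prmt6 shRNA2 arrays were below the GFP shRNA arrays without passing the test. Of 12 measured genes of core pluripotency, 2 fell (Eras and Gdf3, a TGF-beta family ligand, log2 -0.73), none rose, and the median log2 difference was -0.39. The 10 detected on all 4 arrays, which include both calls, had a median of -0.38, and the other 2 were kept only through GFP shRNA. Over all 4353 first-series genes, by their brightest probe, 4.64% rose and 1.88% fell, and the median was 0.03.

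Among 10 measured genes of the naive state, the ground state of mouse stem cells, 4 fell and none rose, with a median of -0.46. Klf4, a zinc-finger factor induced by LIF, had 8.98 and 8.98 with Prmt6 shRNA2 and 10.16 and 10.14 with GFP shRNA. All 3 of its probes fell, the brightest 2.25-fold (log2 -1.17 ± 0.12, limma adjusted p = 0.0096). Zfp42 (Rex1), a widely used marker of the undifferentiated state, had 10.14 and 9.88 with Prmt6 shRNA2 and 11.13 and 10.76 with GFP shRNA, a fall of 1.92-fold (adjusted p = 0.042). Gbx2, a homeobox gene downstream of LIF, fell 2.01-fold and Nr5a2, a nuclear receptor, 1.73-fold. Esrrb, an orphan nuclear receptor of the same network, gave -0.49 ± 0.16 and was not called (adjusted p = 0.12). Tcf15, a bHLH factor of cells preparing to differentiate, fell 2.56-fold, and the de novo DNA methyltransferase Dnmt3b gave 0.25 and was not called. Fgf5, a marker of primed epiblast, was detected on no array.

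Endoderm genes were higher with Prmt6 shRNA2. Of 10 measured members, 7 rose and none fell. The 5 members detected on all 4 arrays all rose, with a median of 1.07. The other 5 were kept only through Prmt6 shRNA2, a rule that favours higher values there, and 2 of them were called. Sox17, a transcription factor that drives endoderm, had normalized log2 values of 8.85 and 8.98 with Prmt6 shRNA2 and 7.30 and 7.33 with GFP shRNA. Gata4, a zinc-finger factor of primitive endoderm, had 8.70 and 8.68 with Prmt6 shRNA2 and 7.30 and 7.54 with GFP shRNA. Gata6, which starts the primitive endoderm programme, had 9.92 and 10.14 with Prmt6 shRNA2 and 8.98 and 9.01 with GFP shRNA. For all 3 factors the knockdown arrays lay clear above the controls. The rises were 3.03-fold for Sox17 (log2 1.60 ± 0.22, limma adjusted p = 0.0161), 2.41-fold for Gata4 (1.27 ± 0.16, 0.0124) and 2.06-fold for Gata6 (1.04 ± 0.15, 0.0187). Sox17 and Gata4 were detected on only 1 GFP shRNA array. The basement-membrane collagen Col4a2, a product of parietal endoderm, rose 2.19-fold, and the endocytic adaptor Dab2 rose 2.25-fold. The endoderm transcription factors Sox7 and Foxa2 were detected on no array of any group.

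Some keratins and junction genes of simple epithelia rose. Of the 5 measured members detected on all 4 arrays 2 rose (Krt8 and Cldn4), with a median of 0.43. Of the 4 kept only through Prmt6 shRNA2, a rule that favours rises, 2 passed (Krt18 and Krt17). Krt8, the type II keratin of simple epithelia, had 11.07 and 10.96 with Prmt6 shRNA2 and 9.28 and 9.18 with GFP shRNA. Krt18, its type I partner, had 9.13 and 9.04 with Prmt6 shRNA2 and 7.50 and 7.03 with GFP shRNA. Both genes were high on both knockdown arrays. Krt8 rose 3.44-fold (log2 1.78 ± 0.15, limma adjusted p = 0.00757) and Krt18 3.54-fold (1.82 ± 0.20, adjusted p = 0.0102). Cldn4, a tight-junction claudin, rose 2.54-fold and Krt17, a keratin of stratified and regenerating epithelia, 2.51-fold. Krt7, another type II keratin of simple epithelia, had 7.78 and 8.11 with Prmt6 shRNA2 and 7.26 and 6.49 with GFP shRNA and was not called (log2 1.07 ± 0.27, adjusted p = 0.0731). The trophectoderm list gave 3 calls out of 7, the same Krt8, Krt18 and Cldn4, and its 5 members detected on all 4 arrays had a median of 0.20. Cdx2, the factor that specifies trophectoderm, gave 0.20 ± 0.33 (adjusted p = 0.731).

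Annexins and S100 proteins, calcium-binding proteins that attach to membranes and to each other, included some of the largest rises. Of the 6 measured members detected on all 4 arrays 5 rose and none fell, with a median of 1.61. A further 2 were kept only through Prmt6 shRNA2, and 1 of them passed. S100a6 (calcyclin) had 13.33 and 13.43 with Prmt6 shRNA2 and 11.25 and 11.29 with GFP shRNA. Anxa3 had 11.81 and 11.94 with Prmt6 shRNA2 and 9.69 and 9.38 with GFP shRNA. Both sets of arrays were tight and far apart. The rises were 4.32-fold for S100a6 (log2 2.11 ± 0.12) and 5.05-fold for Anxa3 (2.34 ± 0.15), each with a limma adjusted p of 0.00729. Anxa2 rose 3.09-fold, and S100a1, not detected with GFP shRNA, rose at least 1.92-fold.

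**Figure D2:**
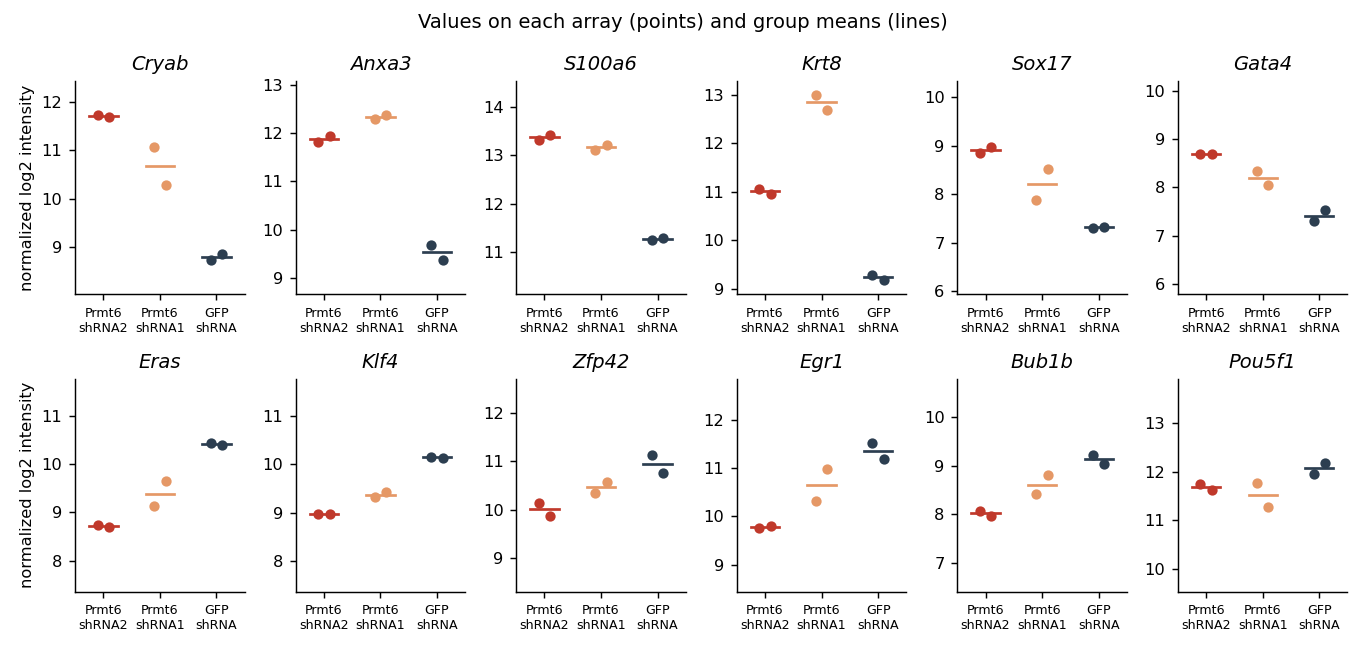
Normalized log2 intensities of 12 genes on each array (points) with group means (lines), in panels of equal height, for Prmt6 shRNA2, Prmt6 shRNA1 and GFP shRNA. The upper row shows genes that rose with Prmt6 shRNA2, such as Cryab at 11.73 and 11.69; the lower row shows genes that fell, and Pou5f1, which was not called.

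Genes of the actin cytoskeleton and the cell surface moved less evenly. Of 15 measured actins, tropomyosins and contractile genes 5 rose and none fell, with a median of 0.22. Acta2, smooth muscle actin, had 10.23 and 10.02 with Prmt6 shRNA2 and 8.93 and 7.96 with GFP shRNA, a rise of 3.20-fold (limma adjusted p = 0.0368). The tropomyosins Tpm1 and Tpm4, which coat actin filaments, rose 2.57-fold and 1.76-fold, and the focal adhesion protein Zyx 2.07-fold. Of 9 measured genes of matrix and proteolysis 4 rose, among them Plaur, the urokinase receptor (3.48-fold), Sdc4, a heparan sulfate proteoglycan (2.70-fold), and Itgb1, the integrin beta subunit common to many integrins (1.65-fold). Ccn1, a matricellular protein and a known target of YAP and TEAD, was not detected with GFP shRNA and rose at least 2.36-fold. The YAP regulator Amotl1 rose 1.76-fold, so that 2 of 5 measured YAP and TEAD targets rose. Ccn1 was kept only through Prmt6 shRNA2, and Amotl1 was the 1 call among the 3 detected on all 4 arrays. Over all first-series genes 4.64% rose and 1.88% fell.

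Cdkn1a (p21), the p53-induced inhibitor of cyclin-dependent kinases, had 12.19 and 12.23 with Prmt6 shRNA2 and 10.65 and 10.92 with GFP shRNA on its brighter probe. Both of its probes rose, this one 2.68-fold (log2 1.42 ± 0.14, limma adjusted p = 0.00916). Mdm2, the ubiquitin ligase that restrains p53 and is itself a p53 target, rose 2.01-fold. Bax, a pro-apoptotic p53 target, fell 1.73-fold. These were the 3 called among 13 measured p53 targets, 12 of which had differences above 0, with a median of 0.29. Of all first-series genes 4.64% rose, 1.88% fell and 53.7% had differences above 0. Of 13 kinase inhibitors and G1 regulators 2 rose (Cdkn1a and Ccnd2, a D-type cyclin, 1.82-fold) and 1 fell (Ccne1, the cyclin that opens S phase, 1.66-fold). Cdkn1b was detected on no array.

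Of 20 measured genes of S phase and mitosis 3 fell and none rose, and all 20 log2 differences were below 0, with a median of -0.47. Over all first-series genes 1.88% fell, 4.64% rose and 53.7% of differences were above 0. Of the 20 genes, 3 were kept only through GFP shRNA, a rule that favours falls, and none of these was called. The 17 detected on all 4 arrays had a median of -0.49. Bub1b, a spindle checkpoint kinase, had 8.06 and 7.97 with Prmt6 shRNA2 and 9.22 and 9.04 with GFP shRNA, a fall of 2.17-fold (limma adjusted p = 0.0213). Top2a, the topoisomerase of replicating chromosomes, had 10.28 and 9.88 with Prmt6 shRNA2 and 11.23 and 11.13 with GFP shRNA, a fall of 2.14-fold (adjusted p = 0.0287). Mki67, the proliferation antigen, fell 1.73-fold (adjusted p = 0.0314). Uhrf1, which guides maintenance DNA methylation behind the replication fork, fell 1.81-fold, the 1 call among 6 genes of DNA methylation.

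Signalling targets moved both ways, beside 4.64% of all first-series genes that rose and 1.88% that fell. Egr1, an immediate early transcription factor switched on by ERK, had 9.76 and 9.79 with Prmt6 shRNA2 and 11.52 and 11.19 with GFP shRNA, a fall of 2.99-fold (limma adjusted p = 0.0213). In the same list of 9 measured FGF and ERK targets 3 genes rose, Phlda1 (3.33-fold), the FGF-binding protein Fgfbp1 (2.75-fold) and the ERK phosphatase Dusp4 (1.97-fold), the last 2 kept only through Prmt6 shRNA2. Sfrp1, a secreted Wnt inhibitor, was not detected with Prmt6 shRNA2 and was at least 1.27-fold lower. Ifitm3, a membrane protein of the interferon response, fell 1.65-fold on its first-series probe, the 1 call among 4 measured members. Its second-series probe did not share the fall (log2 -0.03, limma adjusted p = 0.967).

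Stress genes gave single members rather than lists, beside 4.64% of all first-series genes that rose and 1.88% that fell. Cryab, a small heat shock protein of the alpha-crystallin family, had the largest called rise among named genes detected on all 4 arrays, with 11.73 and 11.69 with Prmt6 shRNA2 and 8.74 and 8.86 with GFP shRNA. The rise was 7.53-fold (log2 2.91 ± 0.26, limma adjusted p = 0.00757), and it was the only call among 9 heat shock genes, whose median was -0.22. Ddit3 (CHOP), a transcription factor of the unfolded protein response, rose 2.01-fold and Nupr1, a small stress-induced chromatin protein, fell 1.78-fold, out of 12 measured. The metallothionein Mt1 rose 2.19-fold while the glutathione transferase Gsta4 fell 2.13-fold and the sulfiredoxin Srxn1 1.76-fold, out of 12 genes of oxidative stress. Bcl2l1, the anti-apoptotic Bcl-xL gene, rose 2.16-fold.

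Lists of chromatin genes near PRMT6 in function stand beside all first-series genes, of which 4.64% rose and 1.88% fell. None of 8 measured arginine methyltransferases and partners and none of 11 genes of H3K4 methylation passed, with medians of -0.14 and -0.22. In lists this short, no call does not depart from that share. Among 10 Polycomb genes Ezh2, the methyltransferase of the repressive complex, had 9.77 and 9.52 with Prmt6 shRNA2 and 10.37 and 10.43 with GFP shRNA, a fall of 1.69-fold (limma adjusted p = 0.0372), and Phc2, a subunit of the ubiquitin-ligase complex, rose 1.62-fold. Igf2, the imprinted growth factor, had intensities of 2462.8 and 1782.0 with Prmt6 shRNA2 and 615.6 and 543.2 with GFP shRNA, a rise of 3.62-fold (adjusted p = 0.00916), the 1 call among 7 imprinted genes. H19, its neighbour, was detected on 3 of the 6 arrays at most and was not kept. Lists of housekeeping processes held 0 or 1 call each. The counts were 0 of 19 proteasome genes, 1 of 22 genes of the mitochondrial respiratory chain (Cox4i1, 1.52-fold higher) and 1 of 17 ribosomal protein genes (Rpl13, 1.91-fold lower). These counts are near the share over all genes and do not set the lists apart.

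**Figure D3:**
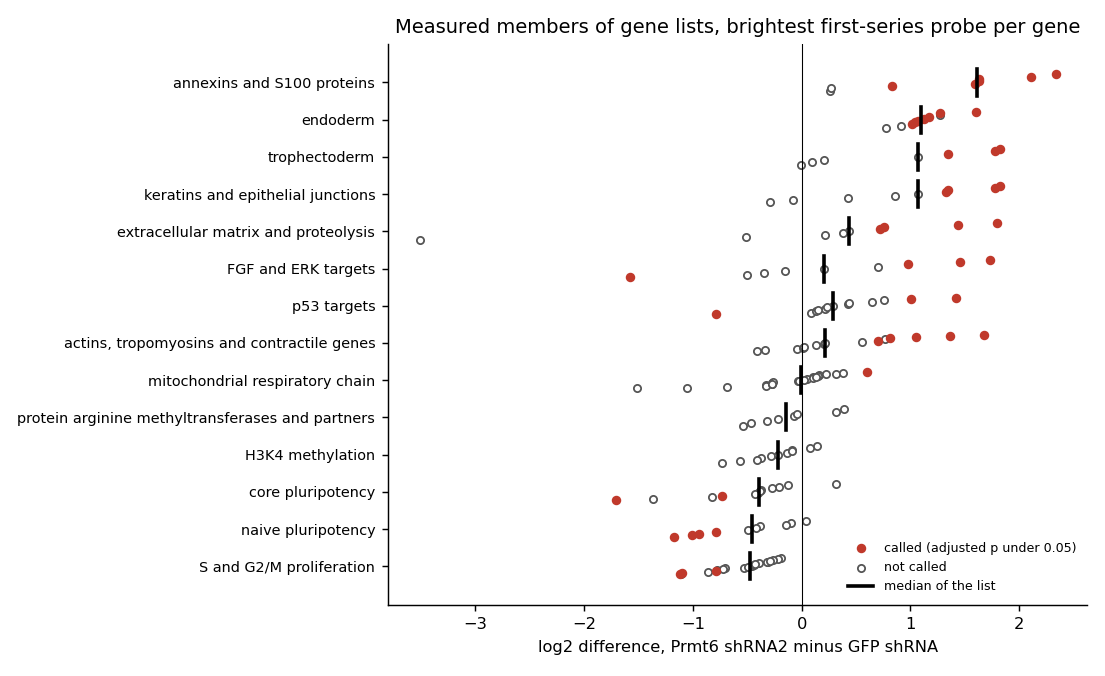
Log2 differences, Prmt6 shRNA2 minus GFP shRNA, of the measured members of 14 gene lists, by the brightest first-series probe of each gene. Filled points passed the test and black bars are medians over all measured members, those kept through only 1 group included, which run between 1.61 for annexins and S100 proteins and -0.47 for S and G2/M proliferation, against 0.03 over all genes.

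Further large changes lay outside the lists. Pga5, a pepsinogen, had 9.28 and 9.16 with Prmt6 shRNA2 and 6.40 and 6.35 with GFP shRNA, where it was not detected, and rose at least 3.27-fold (limma adjusted p = 0.0121). A few other genes were detected on both Prmt6 shRNA2 arrays and on no GFP shRNA array: Gng13, a G-protein gamma subunit, rose at least 2.43-fold, Foxq1, a forkhead factor, at least 2.42-fold, and Gadd45g, a growth-arrest gene, at least 1.94-fold. Ms4a10, a tetraspan membrane protein, rose 4.61-fold, Nipal4, a magnesium transporter family member, 4.38-fold, and Tnfrsf12a, the receptor of the cytokine TWEAK, 3.94-fold. Fmr1nb rose 3.88-fold and Tceal5 3.63-fold, each detected on 1 GFP shRNA array, as were Nipal4, Krt7, Krt17, Krt18, Plaur, Ccnd2, Fgfbp1, Dusp4 and Bcl2l1.

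Of the 14 largest falls of genes with a characterised symbol, 9 were on probes that neither Prmt6 shRNA2 array detected, so that only limits can be given. Notch4, a Notch receptor, had 6.63 and 6.74 with Prmt6 shRNA2 and 8.63 and 9.02 with GFP shRNA and was at least 2.14-fold lower (limma adjusted p = 0.0179). The limits were 1.98-fold for Hnrnpa0, an RNA-binding protein, 1.92-fold for Catsperz, a sperm ion channel subunit, 1.66-fold for Hsd17b11, a lipid droplet dehydrogenase, 1.38-fold for Dynll2, a dynein light chain, 1.33-fold for the adhesion molecule Ceacam1, 1.32-fold for the myosin Myo1f and 1.19-fold for the phosphatase Ppm1j. Second-series probes of Hnrnpa0 and Dynll2 did not share the fall (0.32 and 0.19, neither called). Robo4, a guidance receptor of endothelium, was detected on all 4 arrays, at 8.86 and 8.81 with Prmt6 shRNA2 and 10.30 and 10.26 with GFP shRNA, and fell 2.73-fold (adjusted p = 0.00757). Bdh2, a dehydrogenase of ketone and siderophore metabolism, fell 2.84-fold and was detected on 1 Prmt6 shRNA2 array.

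The direct test of Prmt6 shRNA2 against Prmt6 shRNA1 asks where the hairpins differ. It called 92 of 5157 first-series probes (1.78%), 51 higher with Prmt6 shRNA2 (0.989%) and 41 lower (0.795%), with 973 at an unadjusted p under 0.05. Against GFP shRNA, Prmt6 shRNA1 had 256 calls (4.96%), and both comparisons use the same GFP shRNA arrays. No probe was kept through Prmt6 shRNA1, so genes detected only with that hairpin are missing, while 355 probes were kept through Prmt6 shRNA2 and not GFP shRNA. The counts of the hairpins are therefore not on equal terms. The calls between the hairpins also rest on single arrays: 0 passed without Prmt6 shRNA2 replicate 2, 12 and 11 without Prmt6 shRNA1 replicate 1 or 2, and 8 and 6 without GFP shRNA replicate 1 or 2. Without Prmt6 shRNA2 replicate 1, 86 passed, 15 higher and 71 lower.

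Genes higher with Prmt6 shRNA2 than with Prmt6 shRNA1 included several near their control level with Prmt6 shRNA1. Pga5 stood at 9.28 and 9.16 with Prmt6 shRNA2 and 6.53 and 7.66 with Prmt6 shRNA1, a difference of 2.12 on the log2 scale (limma adjusted p = 0.0468). Tcstv3, a gene of the 2-cell-like state, had 8.35 and 8.74 with Prmt6 shRNA2 and 6.30 and 6.66 with Prmt6 shRNA1 (difference 2.07, adjusted p = 0.0214). Ly6a (Sca-1), a surface marker of several stem cells, had 9.96 and 9.97 with Prmt6 shRNA2 and 8.09 and 8.44 with Prmt6 shRNA1 (difference 1.71, adjusted p = 0.0123). In each case both arrays of one hairpin lay above both of the other, which was a condition for naming these genes and adds no support. Pga5 and Tcstv3 were detected on 1 Prmt6 shRNA1 array. The differences were 1.94 for Fmr1nb, 1.78 for Gng13 and 1.77 for Igfbp2, a binding protein of insulin-like growth factors. Igfbp2 was not called against GFP shRNA (0.84 with Prmt6 shRNA2 and -0.93 with Prmt6 shRNA1). Pga5, Tcstv3, Fmr1nb and Gng13 were kept only through Prmt6 shRNA2, a rule that favours higher values there.

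Keratins and cytoskeletal genes went the other way, being lower with Prmt6 shRNA2 than with Prmt6 shRNA1. Krt7 had 7.78 and 8.11 with Prmt6 shRNA2, 12.08 and 12.11 with Prmt6 shRNA1 and 7.26 and 6.49 with GFP shRNA, so that the hairpins differed by -4.15 (limma adjusted p = 0.0108). Krt18 and Krt8, which rose with Prmt6 shRNA2, still differed from Prmt6 shRNA1 by -2.44 and -1.84 (adjusted p = 0.0108 each). Lgals1, a galactoside-binding lectin, differed by -2.32, and the actin cross-linkers Flnc and Flna by -2.09 and -1.48. Fxyd6, a regulator of the sodium pump, differed by -1.78. With Prmt6 shRNA2 none of Lgals1, Flnc, Flna and Fxyd6 was called against GFP shRNA. With Prmt6 shRNA1 all of them were called higher than GFP shRNA, by 2.58, 2.86, 1.49 and 1.64 on the log2 scale. Igf2 differed by -1.35. Ppm1j, not detected with Prmt6 shRNA2, was at least 1.25-fold lower than with Prmt6 shRNA1. By list, 4 of 7 trophectoderm genes and 4 of 9 keratin and junction genes were lower with Prmt6 shRNA2 than with Prmt6 shRNA1. Those 4 were the same in both lists, namely Krt7, Krt18, Krt8 and Cldn4. Of 15 contractile genes 6 were lower, against 0.873% of all genes. Krt17 was the 1 member of the keratin list that was higher with Prmt6 shRNA2 than with Prmt6 shRNA1 (difference 1.13, adjusted p = 0.0287). No endoderm, core or naive pluripotency, S and G2/M or p53 target gene was called between the hairpins. Over all first-series probes 1.78% were called, and in lists this short no call does not depart from that share. The median differences from GFP shRNA were 1.10 with Prmt6 shRNA2 and 0.74 with Prmt6 shRNA1 for endoderm. They were -0.46 and -0.37 for the naive list. Of the 10 endoderm members 5 were kept only through Prmt6 shRNA2, so the endoderm medians of the hairpins are not on equal terms.

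The clustered histone genes were examined after their values were seen. Replication-dependent histone mRNAs are made in S phase and end in a stem-loop in place of a poly(A) tail. The 29 kept first-series probes for 25 clustered histone genes were picked by gene name. Of these, 12 rose with Prmt6 shRNA2, none fell, and 15 were higher than with Prmt6 shRNA1. Whether their transcripts carried a poly(A) tail was not tested. Over all 5157 kept first-series probes 4.29% rose, 1.96% fell, and 0.989% were higher than with Prmt6 shRNA1. The classes differed. Of 10 H2B probes 8 rose (median 0.93), of 5 H4 probes 2 rose (median 0.55), the linker histone H1f2 rose, and of 7 H2A probes only that of H2ac19 did (median -0.33). None of the 6 H3 probes was called, and all lay below 0 (median -0.25).

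H1f2 had 11.73 and 11.55 with Prmt6 shRNA2, 9.54 and 9.66 with Prmt6 shRNA1 and 9.79 and 10.02 with GFP shRNA, a rise of 3.33-fold over GFP shRNA (log2 1.74 ± 0.15, limma adjusted p = 0.00757). H2bc4 had 11.36 and 11.08 with Prmt6 shRNA2, 9.59 and 9.63 with Prmt6 shRNA1 and 9.85 and 9.96 with GFP shRNA, a rise of 2.49-fold (1.31 ± 0.14, 0.0102). Only the Prmt6 shRNA2 arrays were high for either gene. With Prmt6 shRNA1 all 10 H2B probes lay below GFP shRNA, between -0.93 and -0.29. On the same arrays a first-series probe for 18S ribosomal RNA (Rn18s), which has no poly(A) tail, stood at 11.16 and 11.25 with Prmt6 shRNA2. It stood at 8.69 and 8.95 with Prmt6 shRNA1 and 8.81 and 10.03 with GFP shRNA (log2 1.78 ± 0.38, limma adjusted p = 0.0495 for Prmt6 shRNA2 against GFP shRNA). Its difference from Prmt6 shRNA1 was 2.38 (adjusted p = 0.0449), above that of Pga5. Neither kept second-series Rn18s probe was called. The brighter had intensities of 22762.4 and 18006.5 with Prmt6 shRNA2 and 4251.2 and 9134.3 with GFP shRNA. The dimmer had 5641.9 and 351.3 with Prmt6 shRNA2, the lower value on the array with low second-series signal, and 1357.4 and 1975.3 with GFP shRNA. The part of this ribosomal RNA signal in the histone result was not tested. Probes of near-identical histone copies may share targets, so single members are uncertain.

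Promoters are shown for 3 histone genes that rose (H2bc7, H2bc11 and H1f2) and for H3c4, which did not and whose promoter window faces that of H2bc7 on the opposite strand. The windows are the 250 bases before the annotated start in RefSeq, build GRCm38.p6, on chromosome 13, at chr13:23574208-23574457 on the minus strand for H2bc7, chr13:22042948-22043197 on the plus strand for H2bc11, chr13:23738557-23738806 on the plus strand for H1f2 and chr13:23575513-23575762 on the plus strand for H3c4. Each is read 5′ to 3′ along its gene, and capitals mark the CCAAT box, a common histone promoter element, in either orientation.
H2bc7: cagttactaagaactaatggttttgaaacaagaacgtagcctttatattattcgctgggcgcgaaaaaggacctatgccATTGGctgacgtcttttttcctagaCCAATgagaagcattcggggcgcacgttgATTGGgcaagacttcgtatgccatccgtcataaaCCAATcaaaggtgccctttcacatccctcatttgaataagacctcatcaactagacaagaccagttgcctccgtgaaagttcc
H2bc11: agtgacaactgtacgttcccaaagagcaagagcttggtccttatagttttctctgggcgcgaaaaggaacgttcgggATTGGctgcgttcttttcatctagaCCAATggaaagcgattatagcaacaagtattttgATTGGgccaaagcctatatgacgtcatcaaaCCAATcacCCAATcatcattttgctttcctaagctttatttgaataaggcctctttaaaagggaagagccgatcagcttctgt
H1f2: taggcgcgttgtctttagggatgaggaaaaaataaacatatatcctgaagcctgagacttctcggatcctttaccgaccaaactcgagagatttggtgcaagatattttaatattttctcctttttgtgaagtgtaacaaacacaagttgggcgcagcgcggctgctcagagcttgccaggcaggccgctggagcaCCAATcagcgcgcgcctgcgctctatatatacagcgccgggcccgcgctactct
H3c4: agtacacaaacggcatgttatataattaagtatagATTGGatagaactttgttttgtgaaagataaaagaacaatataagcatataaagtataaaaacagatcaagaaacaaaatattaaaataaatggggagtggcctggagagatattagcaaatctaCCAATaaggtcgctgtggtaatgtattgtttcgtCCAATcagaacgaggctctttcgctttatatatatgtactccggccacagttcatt
The counts of CCAAT boxes were 4 for H2bc7, 5 for H2bc11, 1 for H1f2 and 3 for H3c4. H2bc7 had 2 probes at log2 differences of 0.89 and 0.93 (both called), H2bc11 was at 1.00 (called) and H3c4 at -0.21 (limma adjusted p = 0.429). Of 9 histone genes that rose and had a promoter in the table, 8 held the letters CCAAT on either strand, as did 11 of 14 that were not called and 34.5% of all 27025 promoters. The motif is thus present in both sets.

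**Figure D4:**
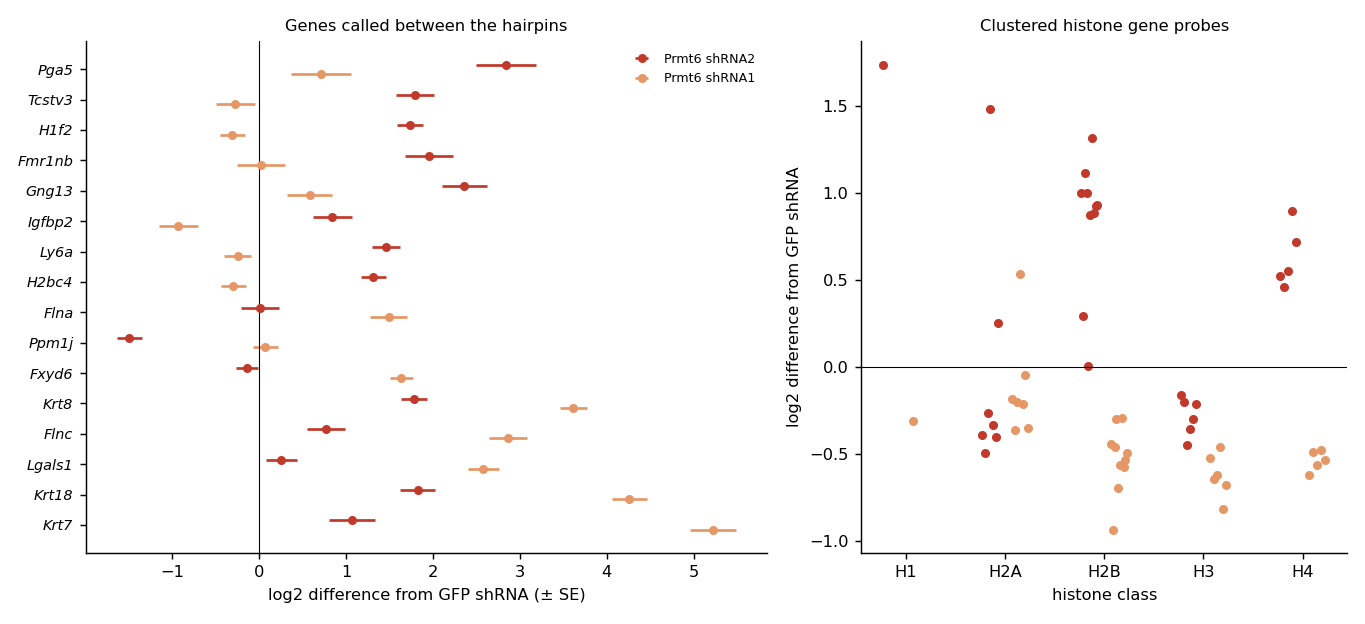
Left, log2 differences from GFP shRNA with limma standard errors for 16 genes with large called differences between the hairpins, the 8 largest each way among probes with a characterised gene symbol in the RefSeq table, Prmt6 shRNA2 above Prmt6 shRNA1 in each row; Krt7 stands at 1.07 with Prmt6 shRNA2 and 5.22 with Prmt6 shRNA1, and Ppm1j is plotted at its fitted value although neither Prmt6 shRNA2 array detected it. Right, log2 differences from GFP shRNA of the 29 histone probes by class, Prmt6 shRNA2 left of Prmt6 shRNA1 and in the same colours; the H2B probes lie at 0.01 and above with Prmt6 shRNA2 and below 0 with Prmt6 shRNA1.

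The second probe series gave no call. Of 1601 kept probes 0 passed (0%), with 76 at an unadjusted p under 0.05. There the correlation between the Prmt6 shRNA2 replicates was r = 0.623, and 386 of the kept probes (24.1%) were at least 4-fold lower on replicate 2 than on replicate 1, while none was 4-fold lower on replicate 1. With Prmt6 shRNA1 and with GFP shRNA such gaps with replicate 2 lower were found on 1 and 0 probes. Of 1536 second-series probes detected on both GFP shRNA arrays, 6.32% were not detected on Prmt6 shRNA2 replicate 1 and 44.2% were not on replicate 2. The low signal reached into the first series too, where 49 probes (0.95%) were at least 4-fold lower on replicate 2; all 49 lay below GFP shRNA and none was called. With replicate 1 of Prmt6 shRNA2 left out, so that the low array stands alone for its group, 968 second-series probes passed, and with replicate 2 left out none did (144 unadjusted).

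**Figure D5:**
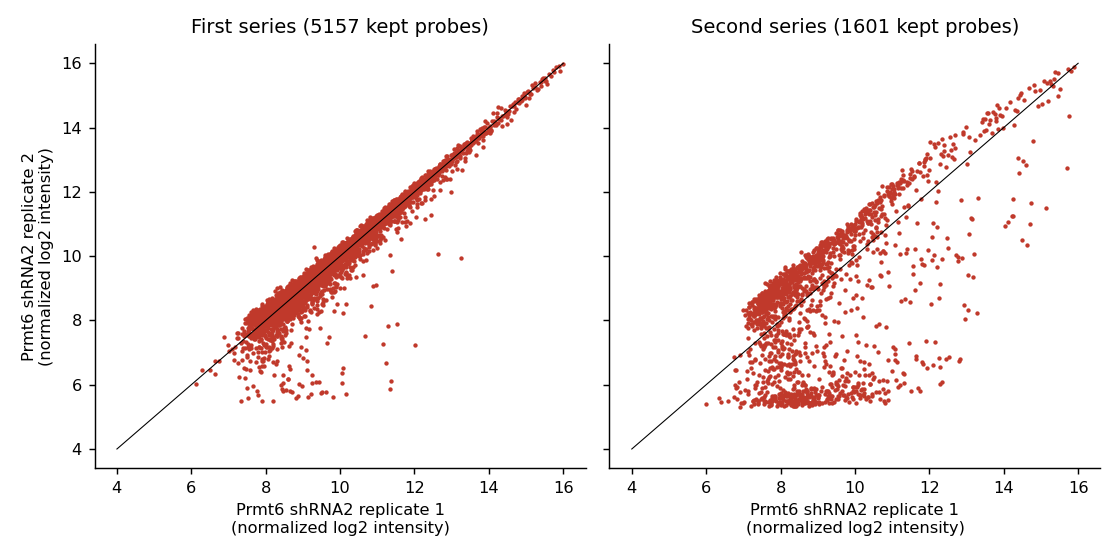
Normalized log2 intensity of each kept probe on Prmt6 shRNA2 replicate 1 (horizontal) and replicate 2 (vertical), with the line of equal values, for the first and the second series. First-series probes follow the line apart from 49 probes; in the second series 386 probes lie at least 4-fold below it and 897 lie above it.

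Large second-series differences that separated the groups at an unadjusted p under 0.01, on probes with a characterised gene symbol, are given as intensities, because after normalization 897 of the 1601 probes stood higher on Prmt6 shRNA2 replicate 2 than on replicate 1 although that array was dimmer. Cemip, a hyaluronan-degrading protein, had 695.4 and 554.1 with Prmt6 shRNA2 and 81.0 and 96.1 with GFP shRNA, where it was not detected. Ahnak, a giant membrane scaffold that binds annexin 2 and S100a10, had 3694.0 and 2470.6 with Prmt6 shRNA2 and 908.5 and 858.1 with GFP shRNA, and its first-series probe rose (log2 1.59 ± 0.14, limma adjusted p = 0.00757). The histone gene H2ac18 had 456.8 and 398.7 with Prmt6 shRNA2 and 143.2 and 137.9 with GFP shRNA. On these 3 probes both knockdown arrays were high. Rasl11b, a Ras-like GTPase, had 1360.3 and 932.9 with Prmt6 shRNA2 and 429.8 and 372.7 with GFP shRNA, and the tyrosine phosphatase Ptpn14 had 907.3 and 794.7 with Prmt6 shRNA2 and 328.1 and 278.5 with GFP shRNA. H2-M5 was the 1 gene named downward, at 196.2 and 27.4 with Prmt6 shRNA2 and 561.1 and 470.8 with GFP shRNA. Neither Prmt6 shRNA2 array detected it, so the measured fall was at least 1.80-fold, and the value of 27.4 came from the array with low second-series signal. The limma adjusted p was 0.497 for each of these 6 second-series probes, so none is established.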

How the data were processed

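Intensities were background-subtracted bead means on a linear scale, as deposited by the authors. The detection score beside each, named so per the file headers, runs between 0 and 1 and was read as 1 minus the detection p-value. The log2 values that the authors also deposited came from lumi according to the submitters' processing notes; its version and settings are not given there. The array build is not given in the sources used here.

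The probe series, split at an address number of 100000000, were corrected and quantile-normalized apart with neqc (offset 16) in limma 3.58.1 under R 4.3.3. lmFit and eBayes then fitted one mean per group over the 6 arrays (residual degrees of freedom 3, prior 3.08 for the first series). P-values are two-sided and adjusted by Benjamini and Hochberg over the kept probes of a series. Errors after ± are limma standard errors (2 arrays per group). The smallest p of an exact permutation test is 0.333 for 2 arrays against 2. Where no array of a group detected a gene, the fold is a lower limit: the brighter group's mean against the dim group's mean of, per array, its own value or the lowest detected signal, whichever was higher. The script was tested on simulated data.

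Of 46643 probes 34385 matched a symbol or synonym in a RefSeq table (GRCm38.p6). The comparison, the 39 gene lists and the rules were chosen with earlier results of these data known. Named genes, among probes with a characterised gene symbol in that table (which left out Rn18s), were the 14 largest called rises and falls on separated arrays, the 8 largest each way between the hairpins, up to 5 each way in the second series at an unadjusted p under 0.01, up to 4 called members of a list, and 22 fixed genes with Prmt6. Alternatives covered normalization, offset, the authors' log2 values, filters, one test per gene, fewer arrays, a replicate block, an intensity trend and each array left out. Same-numbered arrays did not deviate together in every pair of groups (r = 0.285, -0.309 and -0.617 across probes), so numbers were not taken to pair samples.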

Additional observations from a re-analysis of the deposited data

Results flagged for a closer look

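The hairpins' effects on 19 named genes differed by the direct test of Prmt6 shRNA2 against Prmt6 shRNA1 (limma adjusted p under 0.05). On the log2 scale, Prmt6 shRNA2 minus Prmt6 shRNA1, the positive differences were 2.12 for Pga5, 2.07 for Tcstv3, 2.04 for H1f2, 1.94 for Fmr1nb, 1.78 for Gng13, 1.77 for Igfbp2, 1.71 for Ly6a, 1.61 for H2bc4 and 1.21 for Foxq1. The negative ones were -4.15 for Krt7, -2.44 for Krt18, -2.32 for Lgals1, -2.09 for Flnc, -1.84 for Krt8, -1.78 for Fxyd6, -1.48 for Flna and -1.35 for Igf2. Ppm1j and Hsd17b11 were detected on neither Prmt6 shRNA2 array, so that their fitted differences of -1.56 and -1.04 have no place in that order; they were at least 1.25-fold and 1.28-fold lower with Prmt6 shRNA2. Of these, 16 were named because this test called them.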

How the results depend on the processing

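For Prmt6 shRNA2 against GFP shRNA on the first series, 322 calls became 649 with the authors' log2 values, 67 with no filter on dim probes and 0 in a fit over both probe series, chosen after seeing the data. Leaving out 1 array gave between 0 and 385 calls, with more lower than higher without Prmt6 shRNA2 replicate 1 (145 against 79), with 0 without Prmt6 shRNA2 replicate 2 or either GFP shRNA replicate; a group of 1 array is then assumed to vary like the others. Between the hairpins the 92 calls became 180, 20 and 0 under the same 3 settings, and 0 to 86 with 1 array left out. For Prmt6 shRNA1 against GFP shRNA the 256 calls became 141 with no filter and 28 in the fit over both series, and 26 to 127 with 1 array left out. The second series kept 0 calls under every alternative except leaving out 1 array, which gave between 0 and 968. The other alternatives kept each count within 1.5 times. With the replicate number as a block the counts were 40, 0 and 51 for the 3 first-series comparisons and 0 for the second series. With the Prmt6 shRNA1 numbers crossed they were 691, 207 and 420. All 84 named first-series probes called against GFP shRNA kept their sign under those of the 19 alternatives that tested them. Over these alternatives the list medians lay between 1.03 and 1.21 for endoderm, 1.26 and 1.73 for annexins and S100 proteins, -0.52 and -0.29 for naive pluripotency, -0.49 and -0.22 for core pluripotency and -0.53 and -0.32 for S and G2/M genes, while called members ranged between 0 and 9, 6, 4, 3 and 8. For keratins and junctions the median lay between 0.43 (detected on all 4 arrays) and 1.24, with 0 to 6 called higher, for trophectoderm between 0.20 (the same filter) and 1.24, for contractile genes between 0.19 and 0.36 and for p53 targets between 0.21 and 0.43. The sign changed only for genes near 0, namely Cdx2 (-0.11 to 0.53 with 1 array left out, the lowest without GFP shRNA replicate 1), Flna (-7.67e-05 with median scaling and -0.17 to 0.20 with 1 array left out, below 0 without Prmt6 shRNA2 replicate 1 or GFP shRNA replicate 1) and Fxyd6 (0.00067 with the authors' values). Few arrays, and signal close to background on dim probes, limit the precision of every value.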
